A study of Mus musculus with 4 samples.

Results

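The genes Cxcl1, Cxcl2, Cxcl3, Cxcl5, Cxcr2, Cxcr4 and Cxcl12 were followed through every cell class of the mouse nasal mucosa. These 7 genes were taken by symbol from the 27998 genes of the count files, and each symbol stood for 1 gene. Cxcl1, Cxcl2, Cxcl3 and Cxcl5 are secreted chemokines that attract neutrophils through the receptor Cxcr2, which neutrophils carry on their surface. Cxcl12 is made by stromal and endothelial cells and acts on Cxcr4, a receptor of many leukocytes that is known for retaining neutrophils and plasma cells in the bone marrow. In airway mucosa the Cxcr2 ligands are produced by epithelium, macrophages and neutrophils themselves, and their transcription is known to respond to NF-kB.

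Single-cell RNA-seq had been made from CD45+ cells of the nasal mucosa of C57BL/6 mice at 8 weeks of age, with 1 library for each of 4 groups. The mice were given vehicle or ribavirin, a nucleoside analogue used as an antiviral drug, and within each treatment either no ovalbumin or ovalbumin (OVA), the allergen of the allergic rhinitis model, which per the study's methods is injected with alum for sensitization and then given into the nose. The groups are called Vehicle, Vehicle-OVA, Ribavirin and Ribavirin-OVA. The number of mice behind each library and the ribavirin dose are not given in the sources used here.

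After filtering, 65970 cells remained, with 22817 in Vehicle, 16158 in Vehicle-OVA, 18542 in Ribavirin and 8453 in Ribavirin-OVA. The summed depth of the libraries was between 78341505 and 139573280 UMIs (unique molecular identifiers, which count RNA molecules), and the median cell held between 3351 and 5010 UMIs. Between 57 and 174 cell barcodes were shared by each pair of libraries, at most 0.909% of the smaller one. Levels are given as CPM, the UMIs of a gene scaled to the total UMIs summed over the named cells. Ratios are given with 95% intervals that cover counting error only. With 1 library per group no spread between mice could be estimated, so no difference was tested and all values describe these 4 libraries.

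The promoters of Cxcl1, Cxcl2 and Cxcl3 are shown because each carried a kappaB-type sequence close to its start. Over all cells these 3 ligands, and also Cxcl5, were higher with OVA under vehicle and lower with OVA under ribavirin. Within clusters of cells Cxcl1 did not always follow Cxcl3. A link between the sequence and the levels was not tested. Of the 7 genes, 6 had a promoter window in RefSeq for GRCm38.p6 and Cxcl5 was not matched. The motif searched was GGGNNTTTCC on both strands, where N is any base, and it was present in 535 of 32851 windows of the same kind (1.63%), each from 250 bases before to 50 bases after a start. It was present for 3 of the 6 members and was not found in the windows of Cxcr2, Cxcr4 and Cxcl12. In the 110 bases before each start, given on the plus strand as chr5:90891135-90891244 for Cxcl1, chr5:90903789-90903898 for Cxcl2 and chr5:90785991-90786100 for Cxcl3, capitals mark the matches:
Cxcl1: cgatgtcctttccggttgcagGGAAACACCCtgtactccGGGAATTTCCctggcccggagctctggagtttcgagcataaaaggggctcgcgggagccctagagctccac
Cxcl2: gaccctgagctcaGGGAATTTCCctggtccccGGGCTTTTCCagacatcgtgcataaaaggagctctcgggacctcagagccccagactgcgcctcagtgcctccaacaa
Cxcl3: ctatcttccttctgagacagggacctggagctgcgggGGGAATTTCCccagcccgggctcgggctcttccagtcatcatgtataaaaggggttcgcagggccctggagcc
The match GGGAATTTCC began 71 bases before the start of Cxcl1, 97 before that of Cxcl2 and 73 before that of Cxcl3. A second match began 89 bases before the start of Cxcl1, on the minus strand, and 78 bases before that of Cxcl2. Such a match describes the letters of the promoter and is not evidence of binding in these cells. All 3 genes lie on chromosome 5, Cxcl3 at 90786103 to 90789600, Cxcl1 at 90891241 to 90893115 and Cxcl2 at 90903871 to 90905938, and Cxcl5 lies in the same stretch at 90759360 to 90761624 (GENCODE M21, GRCm38). Cxcr2 and Cxcr4 lie on chromosome 1, at 74153989 to 74161246 and at 128588199 to 128592293, and Cxcl12 on chromosome 6, at 117168535 to 117181367. The starts used for the promoter windows are those of RefSeq and can differ by some bases from those of GENCODE. In the files the genes are ENSMUSG00000029380 (Cxcl1), ENSMUSG00000058427 (Cxcl2), ENSMUSG00000029379 (Cxcl3), ENSMUSG00000029371 (Cxcl5), ENSMUSG00000026180 (Cxcr2), ENSMUSG00000045382 (Cxcr4) and ENSMUSG00000061353 (Cxcl12).

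Over all kept cells, the 4 Cxcr2 ligands were higher with OVA than without in the vehicle arm and lower with OVA than without in the ribavirin arm. Cxcl3 stood at 33.5 CPM in Vehicle, 1526 in Vehicle-OVA, 196 in Ribavirin and 52.2 in Ribavirin-OVA. Vehicle-OVA was thus 45.5-fold (44.2 to 46.9) above Vehicle, whereas Ribavirin-OVA was 0.266-fold (0.258 to 0.275) of Ribavirin. Cxcl2 stood at 1775 CPM in Vehicle, 11670 in Vehicle-OVA, 3118 in Ribavirin and 1158 in Ribavirin-OVA, which gave an OVA ratio of 6.58 (6.55 to 6.61) under vehicle and of 0.371 (0.369 to 0.374) under ribavirin. Vehicle-OVA was the highest library for both genes, and the lowest was Vehicle for Cxcl3 and Ribavirin-OVA for Cxcl2.

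Cxcl1, a ligand made by many stimulated cell types, stood at 15.4 CPM in Vehicle, 92.7 in Vehicle-OVA, 36.5 in Ribavirin and 22.1 in Ribavirin-OVA. Its OVA ratio was 6.03 (5.75 to 6.34) under vehicle and 0.606 (0.574 to 0.640) under ribavirin. Cxcl5, a ligand best known from epithelium, stood at 10.5, 38.4, 91.3 and 28.1 CPM in the same order, so its highest library was Ribavirin and not Vehicle-OVA. OVA went with a ratio of 3.66 (3.44 to 3.90) for Cxcl5 under vehicle and of 0.308 (0.294 to 0.322) under ribavirin. The vehicle ratio of Cxcl5 moved with the choice of cells, on the log2 scale from 1.87 as given to 0.235 with the automatic doublet threshold and 3.90 with a mitochondrial limit of 20%. Filtering left 1394 of 5600 deposited Cxcl5 UMIs in Vehicle but 3297 of 3663 in Vehicle-OVA. In Ribavirin 12741 of 19043 were left and in Ribavirin-OVA 2202 of 2689. The vehicle ratio of Cxcl5 therefore holds for the kept cells only. In bulk sums of this kind, fewer cells of a type and less RNA per cell cannot be told apart.

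The receptor Cxcr2 stood at 256 CPM in Vehicle, 542 in Vehicle-OVA, 259 in Ribavirin and 211 in Ribavirin-OVA. The OVA ratio of Cxcr2 was 2.12 (2.09 to 2.15) under vehicle and 0.818 (0.803 to 0.833) under ribavirin, and the latter turned to the other side of 1 under a mitochondrial limit of 5%. Cxcr4 was the only member above 1 in both arms, with 249 CPM in Vehicle, 474 in Vehicle-OVA, 211 in Ribavirin and 331 in Ribavirin-OVA. The corresponding Cxcr4 ratios were 1.90 (1.87 to 1.93) and 1.57 (1.55 to 1.60). Its ligand Cxcl12 was scarce throughout, at 2.03, 0.594, 2.47 and 4.70 CPM, with an OVA ratio of 0.292 (0.212 to 0.395) under vehicle and of 1.90 (1.64 to 2.21) under ribavirin. On the log2 scale this ribavirin ratio of Cxcl12 fell from 0.926 to 0.124 with the mean of single-cell CPM.

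**Figure D1:**
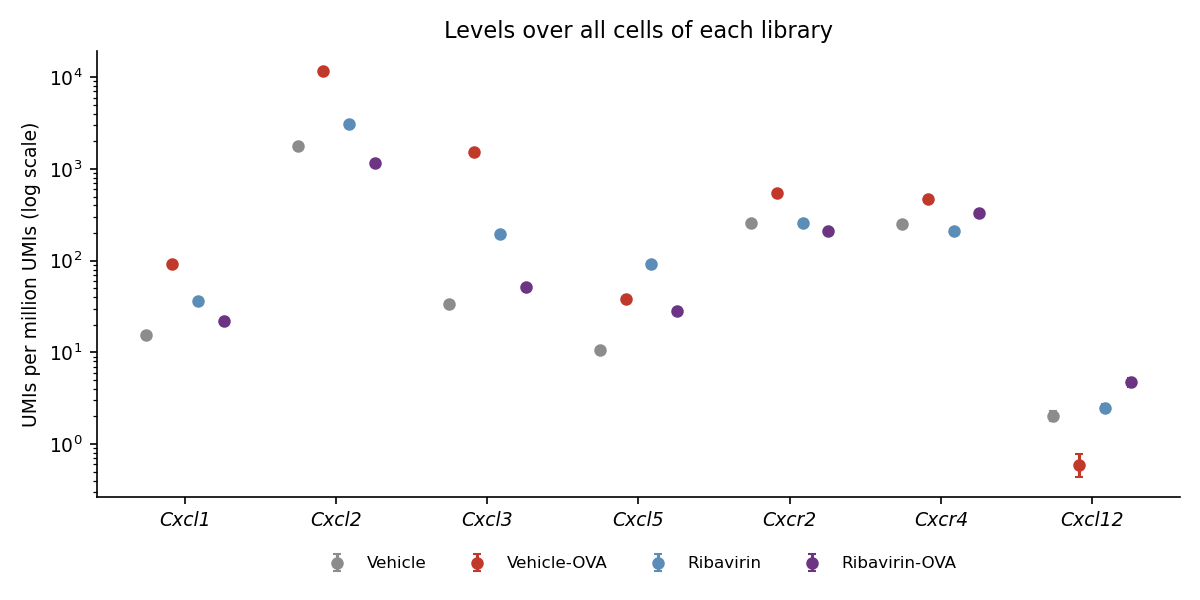
Level of each of the 7 genes over all kept cells in the 4 libraries, in CPM on a log axis, with exact Poisson 95% intervals. Cxcl3 spans the range from 33.5 CPM in Vehicle to 1526 CPM in Vehicle-OVA, and Cxcl12 stays below 5 CPM in every library.

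A gene counted as past 2-fold where log2 of the ratio of CPM + 1 was at least 1 in size, among genes that had 50 or more UMIs in the libraries together. Under vehicle 5 of the 7 genes were past 2-fold higher with OVA (Cxcl1, Cxcl2, Cxcl3, Cxcl5 and Cxcr2), while 8.47% of the 16488 genes tested in all cells were, and none was lower, against 5.28% of all genes. Cxcl5 was not past 2-fold with the automatic doublet threshold, where its log2 ratio was 0.235. Under ribavirin 0 were higher, against 7.7% of all genes, and 3 were lower (Cxcl2, Cxcl3 and Cxcl5), against 1.24%. The median log2 ratio of all tested genes was 0.02 under vehicle and 0.34 under ribavirin, so genes as a whole lay above 1 in the ribavirin arm in which the ligands lay below it.

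The levels of ribavirin-treated libraries were next set beside those of vehicle. Without OVA, Ribavirin was above Vehicle for Cxcl5 (8.70-fold, 8.24 to 9.20), Cxcl3 (5.85-fold, 5.67 to 6.04), Cxcl1 (2.38-fold, 2.26 to 2.50) and Cxcl2 (1.76-fold, 1.75 to 1.76), and for Cxcr2 the ratio was 1.01 (0.995 to 1.03). For Cxcl5 the log2 ratio ran from 1.79 with the automatic doublet threshold to 5.32 with a mitochondrial limit of 20%. Cxcr4 gave 0.845 (0.832 to 0.859) and Cxcl12 gave 1.22 (1.03 to 1.43). With OVA, Ribavirin-OVA was below Vehicle-OVA for Cxcl3 (0.0342-fold, 0.0332 to 0.0353), Cxcl2 (0.0992-fold, 0.0985 to 0.0999), Cxcl1 (0.239-fold, 0.227 to 0.252), Cxcr2 (0.390-fold, 0.383 to 0.397), Cxcr4 (0.699-fold, 0.689 to 0.710) and Cxcl5 (0.733-fold, 0.694 to 0.773). Cxcl12 alone was above it, at 7.91-fold (5.89 to 10.8). These comparisons share libraries with the OVA comparisons, so they are other views of the same 4 values.

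The libraries differed strongly in the cells that carry these genes. Neutrophil-like cells, named from markers such as S100a8, S100a9 and Csf3r, numbered 1345 in Vehicle (5.9% of its cells), 8626 in Vehicle-OVA (53.4%), 3218 in Ribavirin (17.4%) and 853 in Ribavirin-OVA (10.1%). They held 64.3% of all Cxcr2 UMIs in Vehicle-OVA and 20.7% in Vehicle. Siglecf-high neutrophil-like cells, which also express neutrophil genes but carry Siglecf and Ltc4s, were between 1444 and 5421 cells per library, and immature neutrophil-like cells, with the granule genes Ngp and Camp, between 114 and 268. Of the 41 clusters of cells, 3 stayed unnamed. The 7 genes entered neither the clustering nor the marker lists. Ptprc, the gene of CD45, was between 847 and 1253 CPM in the leukocyte classes and unnamed cells and between 33.5 and 112 CPM in the epithelial, stromal, endothelial and olfactory neuron classes, which between 189 and 714 cells a library belonged to despite the enrichment.

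With the 3 neutrophil classes left out, the OVA ratios of the ligands were smaller under vehicle for Cxcl1 (3.75, 3.52 to 4.00) and Cxcl2 (3.48, 3.44 to 3.52) and close to the former value for Cxcl3 (43.7, 39.8 to 48.1). Cxcl5 gave 5.16 (4.84 to 5.50). Under ribavirin the ratios without these classes were 0.790 (0.744 to 0.838) for Cxcl1, 0.517 (0.509 to 0.526) for Cxcl2, 0.887 (0.823 to 0.956) for Cxcl3 and 0.295 (0.281 to 0.308) for Cxcl5. Each of the 4 ligands kept its side of 1 in both arms, but Cxcl3 under ribavirin moved from 0.266 nearly to 1. This setting was chosen after the data were seen.

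**Figure D2:**
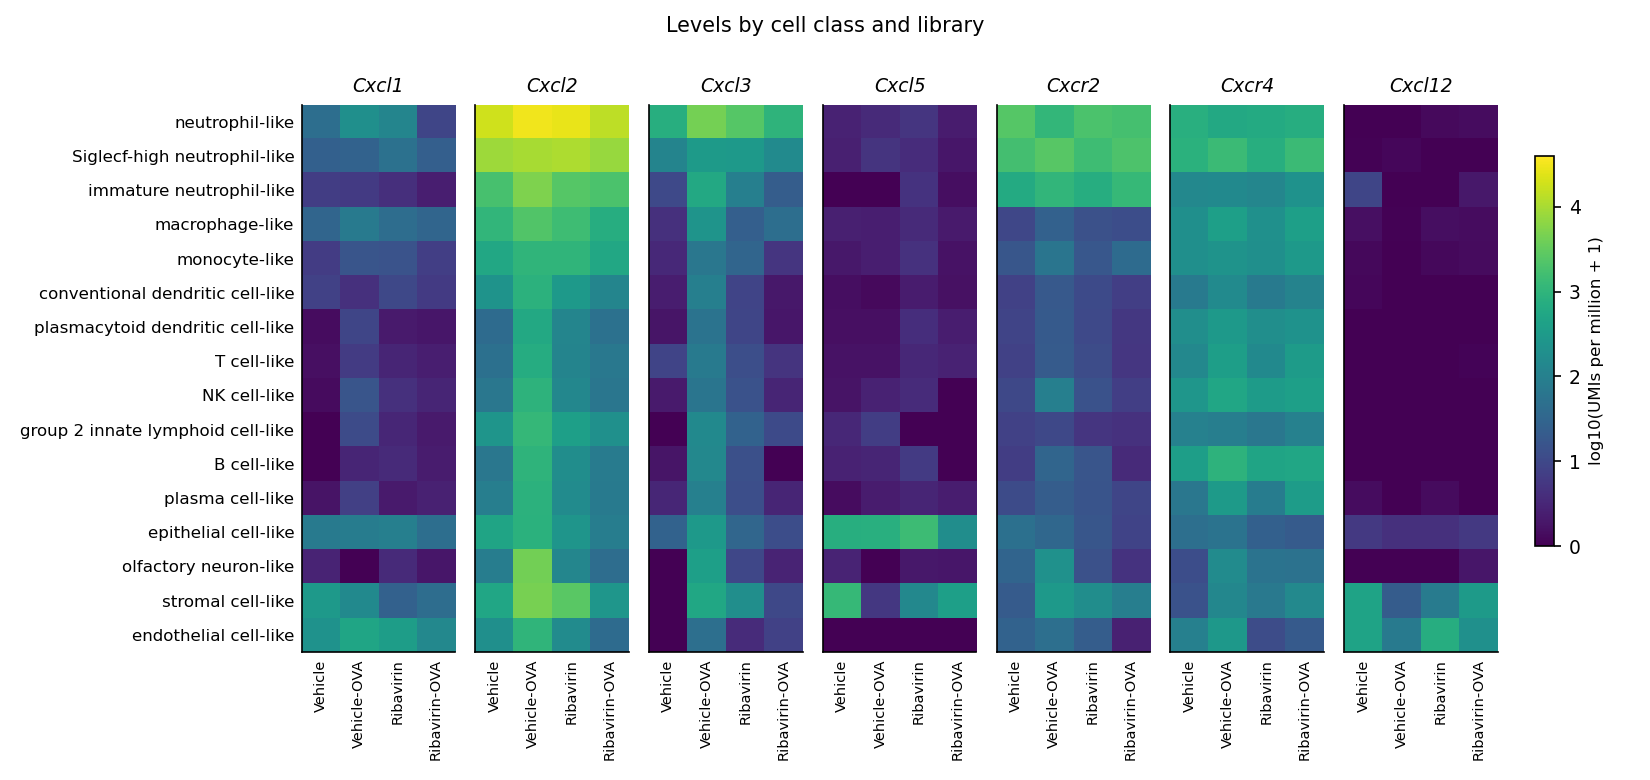
Level of each of the 7 genes by named cell class (vertical) and library (horizontal), as colour on the scale of log10(CPM + 1). The mast cell-like class, with 1 to 45 cells a library, is not shown. Among the classes shown, a neutrophil class has the highest Cxcl2, Cxcl3 and Cxcr2 of each library, and Cxcr4 is spread over lymphoid and neutrophil classes. Of the same classes, only the stromal and endothelial cell-like ones have Cxcl12 above 10 CPM.

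Within neutrophil-like cells the ligand Cxcl3 kept the pattern of the whole libraries with smaller ratios. Cxcl3 stood at 751 CPM in Vehicle, 4388 in Vehicle-OVA, 2415 in Ribavirin and 977 in Ribavirin-OVA. The OVA ratio of Cxcl3 was 5.84 (5.60 to 6.10) under vehicle and 0.405 (0.387 to 0.423) under ribavirin. Cxcl2 in the same cells stood at 18520, 31680, 27960 and 13910 CPM, with ratios of 1.71 (1.70 to 1.73) and 0.498 (0.492 to 0.503). Cxcl1 stood at 45.4, 192, 123 and 8.12 CPM, with ratios of 4.23 (3.56 to 5.06) and 0.0661 (0.0396 to 0.104), the latter resting on 19 UMIs in Ribavirin-OVA. On the log2 scale that Cxcl1 ratio was -3.92 and ran from -4.26 when centred to -2.07 with the automatic doublet threshold, moving by over 1.5 times in 7 of 11 settings. Vehicle-OVA was the highest library and Ribavirin the next for each of these 3 ligands, and Ribavirin-OVA was the lowest for Cxcl1 and Cxcl2.

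Cxcl5 was at or below 4.04 CPM and Cxcl12 at or below 0.427 CPM in neutrophil-like cells of every library. Of the 7 genes, 6 had enough UMIs there to be counted, Cxcl12 being the exception. Under vehicle 2 were past 2-fold higher with OVA (Cxcl1 and Cxcl3), against 9.7% of the 9074 genes tested in these cells, and 1 was lower (Cxcr2), against 14.9%. That 1 of 6 is near the share of all genes, and Cxcr2 was no longer past 2-fold in 7 settings, among them the 3 neutrophil classes taken as 1, doublets kept, resolution 2 and centring. Under ribavirin 0 were higher, against 15.8%, and 4 were lower (Cxcl1, Cxcl2, Cxcl3 and Cxcl5), against 3.64%. Of these 4, Cxcl5 did not exceed the range of the lymphoid and plasmacytoid classes in Ribavirin, 1.94 to 5.17 CPM. Its place in this count is read as background. The median log2 ratio of all tested genes in neutrophil-like cells was -0.22 under vehicle and 0.34 under ribavirin.

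The neutrophil-like class was made up of different clusters in different libraries, so the same ratios were taken within clusters. Cluster 6, led by Lrg1, H2-Q10 and Stfa2l1, held 81.3% of neutrophil-like cells in Vehicle and 67.7% in Ribavirin, but 2.62% in Vehicle-OVA and 20% in Ribavirin-OVA. In Vehicle-OVA, 45.4% lay in cluster 5, led by the heat shock genes Hspa1b and Hspa1a and by Il1rn, and 27.2% lay in cluster 11, led by Cxcl3 itself, Serpinb2 and Csf3. The heat shock genes are among those raised by tissue dissociation, and their part in the values of cluster 5 was not tested. Cluster 21, led by Cxcl3, Asprv1 and Cxcl2, held 26.2% of these cells in Ribavirin and 0.162% in Vehicle-OVA.

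Cxcl3 moved the same way within clusters as in the class. Among the clusters of the 3 neutrophil classes with enough cells and UMIs, the interval of its OVA ratio lay above 1 in 6 of 6 clusters under vehicle, from 1.60 in cluster 2 to 62.9 in cluster 24, and below 1 in 6 of 6 clusters under ribavirin, from 0.242 to 0.708. Between the OVA libraries, the Cxcl3 ratio of Ribavirin-OVA to Vehicle-OVA lay below 1 in 7 of 7 clusters. Cxcl2 likewise lay below 1 in 6 of 6 clusters with OVA under ribavirin. Under vehicle its ratios ran from 0.830 in cluster 2 to 2.77 in cluster 24.

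Cxcl1 did not keep its class ratio within clusters under vehicle. Its OVA ratio lay above 1 in 1 of 5 clusters (cluster 5, 1.77, 1.20 to 2.71), below 1 in 1 of 5 (cluster 6, 0.355, 0.126 to 0.806), and had an interval spanning 1 in the others. In Vehicle-OVA itself Cxcl1 was 259 CPM in cluster 11, 227 in cluster 20 and 181 in cluster 5, against 41.7 in cluster 18 and 12.4 in cluster 6. This order did not hold in Ribavirin-OVA, where Cxcl1 was 2.56 CPM in cluster 5 and 10.1 in cluster 6, on 2 and 4 UMIs. Under ribavirin the interval of the Cxcl1 ratio lay below 1 in 4 of 4 clusters.

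**Figure D3:**
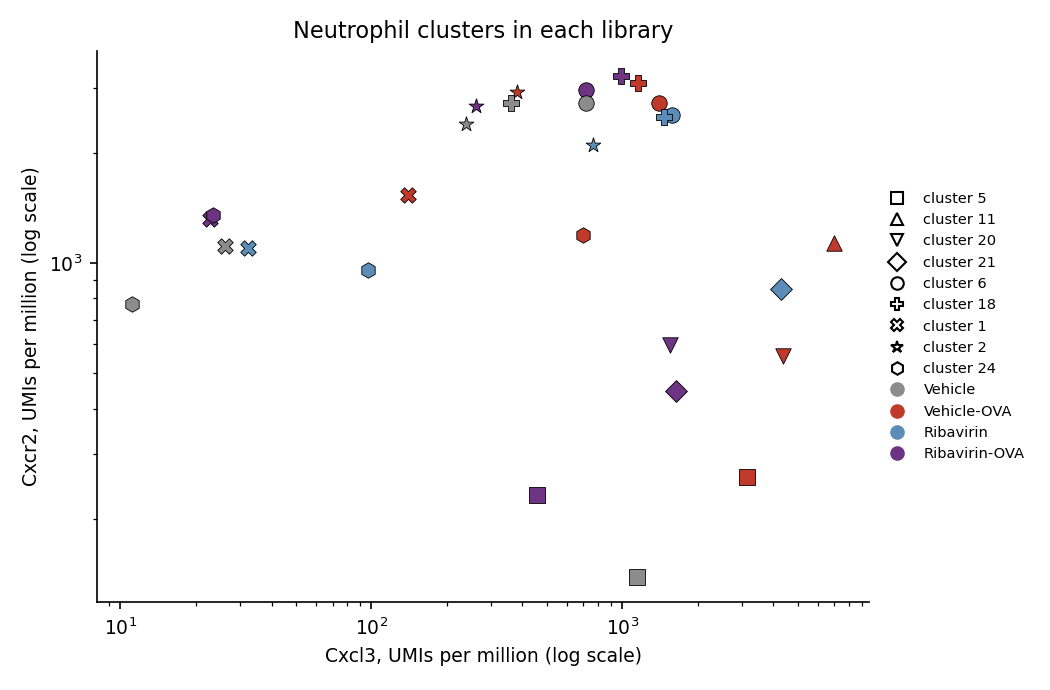
Cxcr2 (vertical) against Cxcl3 (horizontal) in CPM on log axes, with 1 point for each cluster of the 3 neutrophil classes and library with at least 50 cells, marked by shape for the cluster and by colour for the library. Cluster 11 in Vehicle-OVA lies at 6997 CPM of Cxcl3 and 1135 of Cxcr2, and cluster 18 in the same library at 1153 and 3099.

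Cxcr2 also differed between class and clusters. In neutrophil-like cells it stood at 2420 CPM in Vehicle, 1102 in Vehicle-OVA, 2001 in Ribavirin and 1716 in Ribavirin-OVA, so that Vehicle-OVA was 0.455-fold (0.444 to 0.467) of Vehicle. Within clusters of the 3 neutrophil classes, the interval of the same ratio lay above 1 in 5 of 6 and below 1 in 0 of 6, from 1.005 in cluster 6 to 1.88 in cluster 5. Of the clusters with most of the Vehicle-OVA class, cluster 5 had Cxcr2 at 261 CPM in that library, cluster 11 at 1135 and cluster 20, which is led by the interferon-induced genes Rsad2 and Ifit1 and held 11.7% of the class, at 558. Cluster 18, led by Mmp8 and Retnlg, held a further 12.9% of the class in Vehicle-OVA but had 3099 CPM there. Cluster 6, which held most of the class in Vehicle, had 2727 CPM in that library. The lower Cxcr2 of the Vehicle-OVA class thus stood beside a different cluster makeup, and in none of the 6 clusters compared was the level lower. Of these 6, clusters 1, 2 and 24 belong to the Siglecf-high and immature classes. Clusters 11 and 20, with 27.2% and 11.7% of the class in Vehicle-OVA, had 3 and 7 cells in Vehicle and were not compared. A change of Cxcr2 inside them thus could not be seen.

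With all libraries pooled, clusters high in Cxcl3 were mostly low in Cxcr2. Clusters 11, 20, 21 and 5 had Cxcl3 at 6932, 4180, 4005 and 2875 CPM with Cxcr2 at 1147, 560, 848 and 255 CPM. Clusters 6, 18 and 2 had lower Cxcl3, at 1312, 1116 and 391 CPM, with Cxcr2 at 2619, 3076 and 2499 CPM. Cluster 1, led by Siglecf and Ltc4s, was low in Cxcl3 (36.3 CPM) with Cxcr2 at 1161 CPM. Each value is compared here only with the same gene in other clusters. The pooled values mix libraries in unequal parts, and the Cxcl3 order was not the same in each. In Ribavirin-OVA, Cxcl3 was 459 CPM in cluster 5, below 717 in cluster 6 and 984 in cluster 18.

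In Siglecf-high neutrophil-like cells both receptors were higher with OVA in both arms. Cxcr2 stood at 1675 CPM in Vehicle, 2569 in Vehicle-OVA, 1473 in Ribavirin and 2101 in Ribavirin-OVA, with OVA ratios of 1.53 (1.501 to 1.566) and 1.43 (1.39 to 1.47). Cxcr4 stood at 877, 1356, 761 and 1392 CPM, with ratios of 1.55 (1.502 to 1.592) and 1.83 (1.77 to 1.89). Cxcl3 in these cells was lower than in the neutrophil-like class, at 119, 320, 303 and 160 CPM, and Cxcl2 ran from 7822 in Ribavirin-OVA to 10950 CPM in Ribavirin. Cluster 2 held 47.3% of this class in Vehicle and 72.6% in Vehicle-OVA, and the Cxcr2 ratio inside it was 1.22 (1.19 to 1.25) under vehicle and 1.28 (1.24 to 1.32) under ribavirin. The Cxcr4 ratio inside cluster 2 was 1.03 (1.001 to 1.07) under vehicle and 1.24 (1.19 to 1.30) under ribavirin. In cluster 1 it was 2.26 (2.12 to 2.40) and 2.51 (2.38 to 2.65).

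Immature neutrophil-like cells had little Cxcl3 without OVA (9.24 CPM in Vehicle and 97.5 in Ribavirin), much in Vehicle-OVA (597 CPM) and 21.4 CPM in Ribavirin-OVA. Their Cxcr2 was higher with OVA in both arms, at 644, 1072, 732 and 1223 CPM. The OVA ratios of Cxcr2 were 1.66 and 1.67, on between 114 and 268 cells a library.

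**Figure D4:**
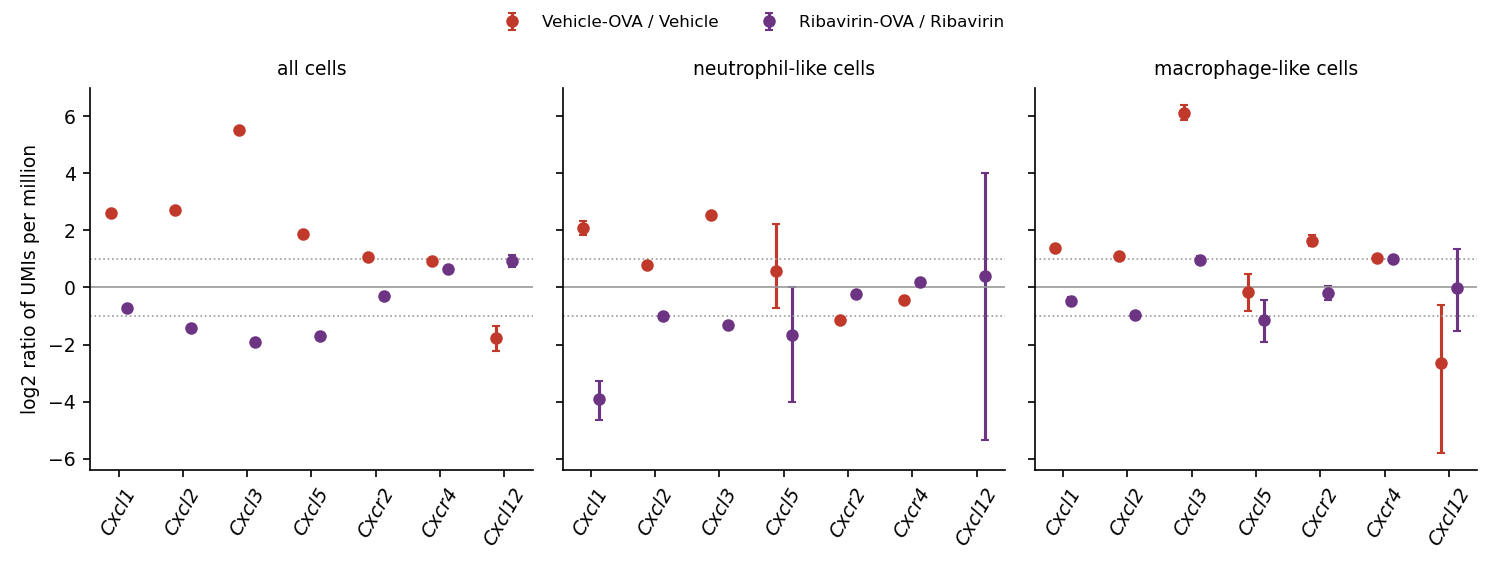
Ratio of the library with OVA to the one without, for each of the 7 genes, under vehicle and under ribavirin, in all cells, neutrophil-like cells and macrophage-like cells, on a log2 axis with exact conditional binomial 95% intervals. For Cxcl3 the vehicle ratio is 45.5 over all cells, 5.84 for the neutrophil-like class and 69.5 for the macrophage-like class. The macrophage-like level in Vehicle lies inside the range of the lymphoid classes, though above their median of 1.16 CPM, and is read as background.

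At the level of single cells, the ligands were unevenly shared out. After each cell had been thinned to 1000 UMIs, so that depth was the same, 16.1% of neutrophil-like cells in Vehicle, 52.0% in Vehicle-OVA, 36.5% in Ribavirin and 20.8% in Ribavirin-OVA had a Cxcl3 UMI (20.1%, 61.9%, 43.9% and 26.3% before thinning). T cell-like cells, taken for comparison as a class not known for making Cxcl3, gave 0.308%, 7.58%, 0.978% and 0.190% after thinning and 1.10%, 28.8%, 4.50% and 1.51% before. The median depth was between 2022 and 2857 UMIs in neutrophil-like and between 4103.5 and 5166 in T cell-like cells. Thinning left out 52, 477, 0 and 82 neutrophil-like cells and 32, 15, 0 and 14 T cell-like cells in the same order. The neutrophil-like share was above the T cell-like share in each of the 4 libraries, and both shares were highest in Vehicle-OVA.

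The 10% of neutrophil-like cells with the most Cxcl3 held 89.1% of its UMIs in Vehicle, 55.9% in Vehicle-OVA, 65.1% in Ribavirin and 84.8% in Ribavirin-OVA. Cxcl3 was therefore spread over more cells in Vehicle-OVA. For Cxcl2 the corresponding shares were 39.7%, 33.8%, 33.7% and 41.1%, and the median neutrophil-like cell held 25, 69, 57 and 20 Cxcl2 UMIs. All Cxcl1 UMIs fell in the top 10% of cells in Vehicle-OVA (5209 UMIs, 863 cells) and in Ribavirin (1125 UMIs, 322 cells). The same held in Vehicle (132 UMIs, 135 cells) and Ribavirin-OVA (19 UMIs, 86 cells). In these last libraries it could not be otherwise, since there were fewer UMIs than cells in the top 10%.

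UMIs of the ligands were also found in lymphoid classes, where free RNA in droplets can give them. In Vehicle-OVA, Cxcl2 was between 591 and 965 CPM across the 5 lymphoid and plasmacytoid classes, whereas Vehicle gave 40.2 to 90.1 CPM, Ribavirin 118 to 176 and Ribavirin-OVA 50.3 to 80.0. Cxcl3 in these classes was between 55.4 and 139 CPM in Vehicle-OVA and at most 13.2 CPM in the other libraries. For each Cxcl3 UMI, T cell-like cells had 6.11 Cxcl2 UMIs in Vehicle, 9.40 in Vehicle-OVA, 9.94 in Ribavirin and 17.6 in Ribavirin-OVA. Neutrophil-like cells had 24.6, 7.22, 11.6 and 14.2 in the same order. In Vehicle, T cell-like cells thus had more Cxcl3 for their Cxcl2 than neutrophil-like cells and held 217 of the 255 Cxcl3 UMIs of the 5 classes, and the source of these UMIs was not tested. Levels of other classes at or below these ranges are read as background.

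In macrophage-like cells the ligands also differed between libraries, and most of the class changed cluster with OVA. Cxcl3 stood at 3.41 CPM in Vehicle, 237 in Vehicle-OVA, 23.4 in Ribavirin and 45.3 in Ribavirin-OVA, with OVA ratios of 69.5 (58.4 to 83.5) under vehicle and 1.94 (1.75 to 2.15) under ribavirin. The Vehicle level lay inside the lymphoid range of that library, 0.852 to 7.85 CPM, so the 69.5 is a ratio to a level read as background. It lay above the median of the lymphoid classes, 1.16 CPM, and T cell-like cells held most of the Cxcl3 UMIs of those classes. Within clusters the Cxcl3 ratio under ribavirin turned to below 1 in 3 of 3, at 0.247 (0.207 to 0.297) in cluster 7, 0.122 (0.0250 to 0.358) in cluster 4 and 0 (0 to 0.313) in cluster 13. Cxcl2 stood at 1070, 2267, 1464 and 745 CPM in the class, with ratios of 2.12 (2.09 to 2.15) and 0.509 (0.499 to 0.519). Cxcl1 stood at 30.4, 78.3, 42.2 and 30.4 CPM, with ratios of 2.58 (2.39 to 2.78) and 0.720 (0.649 to 0.797). The summed level of the 10 neutrophil markers in macrophage-like cells was 728, 2350, 1062 and 829 CPM, with 0 of the 10 at 0, and its part in these values was not tested.

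Cluster 7, led by Ccl24 and Arg1, held 86.8% of macrophage-like cells in Vehicle-OVA and 85.8% in Ribavirin-OVA but at most 2.45% without OVA. Cluster 4, led by Ly6i and Cxcl9, held 68.5% in Vehicle and 66.1% in Ribavirin. In cluster 7, Cxcl3 was 264 CPM in Vehicle-OVA, above the lymphoid range, 53.0 CPM in Ribavirin-OVA and 214 CPM in Ribavirin. Cxcl2 there was 2366 and 783 CPM. In clusters 4 and 13, Cxcl3 in Vehicle-OVA was 59.5 and 55.3 CPM, within or just below the lymphoid range.

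Cxcl1 again went another way inside the macrophage clusters. Its OVA ratio under vehicle was 0.858 (0.560 to 1.26) in cluster 4 and 0.716 (0.502 to 0.995) in cluster 13, whereas the class as a whole gave 2.58. Under ribavirin the Cxcl1 ratio was 0.104 (0.0887 to 0.122) in cluster 7, 0.325 (0.167 to 0.571) in cluster 4 and 0.389 (0.216 to 0.652) in cluster 13. Cluster 7 had 66 cells in Ribavirin and 35 in Vehicle.

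Of the 7 genes, 6 could be counted in macrophage-like cells. Under vehicle 5 were past 2-fold higher (Cxcl1, Cxcl2, Cxcl3, Cxcr2 and Cxcr4), against 8.95% of 12222 genes, and 0 were lower, against 3.28%. Under ribavirin 0 were higher, against 7.01%, and 0 were lower, against 2.62%, although Cxcl3 and Cxcr4 lay close to the threshold. Cxcr2 stood at 8.45, 26.3, 13.1 and 11.4 CPM in macrophage-like cells, and its value in Vehicle-OVA was inside the lymphoid range of 19.2 to 95.5 CPM, so it is read as background.

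Cxcr4 was higher with OVA across most leukocyte classes and in both arms. In macrophage-like cells it stood at 193, 399, 200 and 395 CPM, with ratios of 2.06 (2.00 to 2.13) and 1.97 (1.90 to 2.04). Within its clusters the vehicle ratio was 2.35 (2.17 to 2.54) in cluster 4 but 1.15 (0.989 to 1.32) in cluster 13, and the ribavirin ratio was between 1.37 in cluster 7 and 1.87 in cluster 4. T cell-like cells gave 138, 376, 150 and 328 CPM, with ratios of 2.73 and 2.19. Plasma cell-like cells gave 66.7, 314, 83.3 and 344 CPM, with ratios of 4.71 and 4.12. The levels of the libraries with OVA lay above those without in each of these 3 classes.

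The plasma cell-like class also changed cluster, as cluster 15 held 91.5% of it in Vehicle and 88.9% in Ribavirin, and cluster 25 held 81.6% in Vehicle-OVA and 68.7% in Ribavirin-OVA. Cluster 25 had Cxcr4 at 315 CPM in Vehicle-OVA and at 228 CPM (175 to 292) in the 21 cells of Vehicle, and cluster 15 had 59.9 CPM in Vehicle. NK cell-like cells gave 262, 516, 331 and 398 CPM of Cxcr4, B cell-like cells 377, 946, 484 and 531, and monocyte-like cells 192, 227, 194 and 308.

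Neutrophil-like cells were the exception, with Cxcr4 at 801 CPM in Vehicle, 595 in Vehicle-OVA, 658 in Ribavirin and 748 in Ribavirin-OVA. The OVA ratio of Cxcr4 in these cells was 0.743 (0.711 to 0.776) under vehicle and 1.14 (1.08 to 1.20) under ribavirin, and the latter fell below 1 when centred on the median of all genes. The group 2 innate lymphoid cell-like class gave 105, 93.0, 66.5 and 105 CPM, with overlapping intervals between Vehicle and Vehicle-OVA.

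The receptors were set against each other in single neutrophil-like cells thinned to 1000 UMIs. A Cxcr2 UMI was present in 79.6% of cells in Vehicle, 41.6% in Vehicle-OVA, 73.3% in Ribavirin and 50.6% in Ribavirin-OVA (86.6%, 55.4%, 86.1% and 56.9% before thinning), against at most 1.46% of T cell-like cells. In Vehicle 42.7% of cells had Cxcr2 without Cxcr4, 8.74% had Cxcr4 without Cxcr2, 36.9% had both and 11.7% had neither. In Vehicle-OVA these shares were 26.5%, 22.6%, 15.1% and 35.8%. Ribavirin gave 43.4%, 11.5%, 29.9% and 15.2%, and Ribavirin-OVA gave 28.8%, 20.8%, 21.8% and 28.7%. Cells with both were as frequent as the product of the single shares would give, which was 36.3%, 15.7%, 30.4% and 21.5%.

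**Figure D5:**
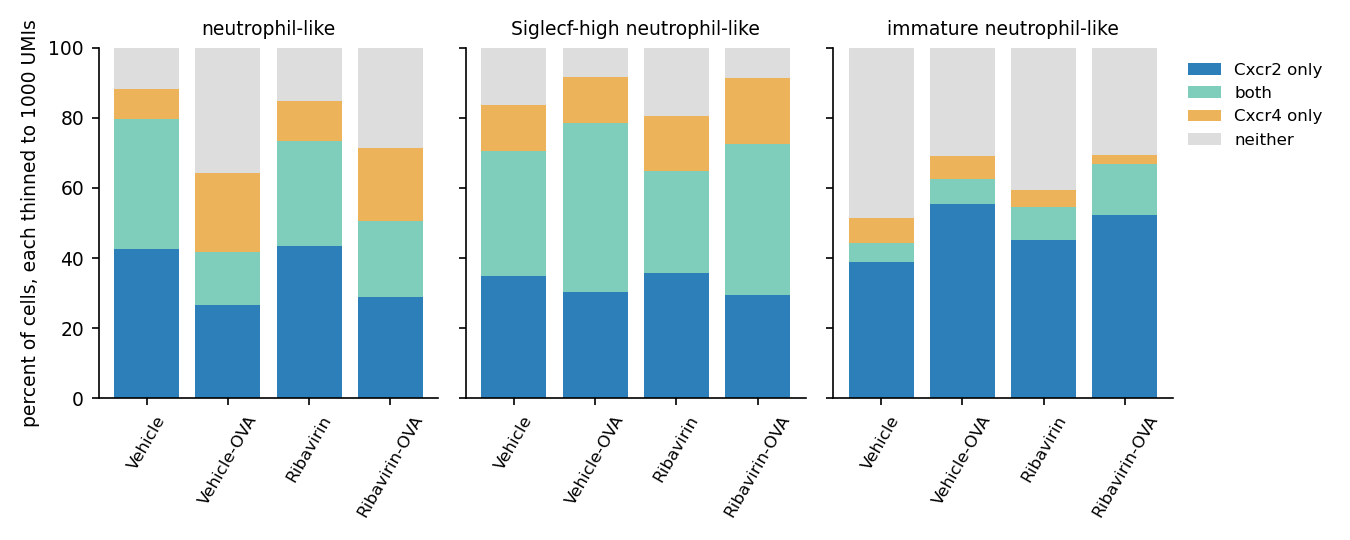
Share of cells of the 3 neutrophil classes in each library with a UMI of Cxcr2 only, Cxcr4 only, both or neither, in percent, after thinning each cell to 1000 UMIs. In neutrophil-like cells Cxcr2 without Cxcr4 is the most frequent state in Vehicle (42.7%) and Ribavirin (43.4%), and neither receptor is the most frequent in Vehicle-OVA (35.8%).

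Cxcl5 and Cxcl12 were found mainly outside the leukocytes. Epithelial cell-like cells, between 124 and 386 a library, had Cxcl5 at 751 CPM in Vehicle, 797 in Vehicle-OVA, 1424 in Ribavirin and 180 in Ribavirin-OVA, and held between 76.8% and 96.4% of its UMIs. The class level was close with and without OVA under vehicle and lower with OVA under ribavirin, but it rested on clusters that differed and were unevenly filled. In cluster 29 Cxcl5 was 455 CPM in both Vehicle and Vehicle-OVA, 1983 in Ribavirin and 124 in Ribavirin-OVA. Cluster 36 gave 2490, 240, 1109 and 534 CPM in the order of the libraries. Cluster 34 gave 2640 CPM in Vehicle-OVA, with 1983 of the 3105 epithelial Cxcl5 UMIs of that library in 29 cells, 706 in Ribavirin and 28.4 in Ribavirin-OVA, and it had 3 cells in Vehicle. Cluster 35 had 1 Cxcl5 UMI over all libraries and made up 79 of the 148 epithelial cell-like cells of Vehicle and 8 of the 124 of Vehicle-OVA. Stromal cell-like cells, between 25 and 35 a library, had Cxcl5 at 1230, 4.53, 142 and 401 CPM.

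Cxcl12 was at 468, 74.9, 726 and 202 CPM in endothelial cell-like cells, which numbered 26, 12, 42 and 36. In stromal cell-like cells it was at 456, 20.4, 79.9 and 322 CPM. Both classes had their lowest Cxcl12 in Vehicle-OVA, and the lymphoid classes had at most 0.444 CPM in any library. The same 2 classes also carried Cxcl1, at 222, 498, 360 and 138 CPM in endothelial and 311, 150, 25.4 and 42.6 CPM in stromal cell-like cells. With so few cells left after enrichment for CD45, these values rest on a small and perhaps uneven remainder of each class. Stromal cell-like cells also held Cxcl2 at 529, 4521, 2663 and 259 CPM and Cxcr2 at 19.8, 301, 178 and 90.6 CPM. In Vehicle-OVA both lay above the lymphoid ranges, 591 to 965 and 19.2 to 95.5 CPM. The part of neutrophil RNA in the stromal levels of Cxcl1, Cxcl5 and Cxcl12 was not tested.

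Genes with the most similar profile were looked for over 55 combinations of class and library with at least 50 cells, from 14 classes and among 12855 genes. The Pearson r of log2(CPM + 1) is a description, since combinations share libraries, depth and free RNA. Cxcl2 lay nearest to Irg1 (r = 0.974), Clec4d (0.968) and Hcar2 (0.963), and Cxcl3 nearest to Irg1 (0.903), Smox (0.886) and Hcar2 (0.876). Cxcr2 lay nearest to G0s2 (0.970), S100a9 (0.963) and Nlrp12 (0.961), of which G0s2 and S100a9, like Clec4d, were used to name the neutrophil classes. Cxcl1 lay nearest to Ier3 (0.811), Cstb (0.808) and Cdc42ep4 (0.8), and Cxcr4 to Arid5a (0.844), Ptk2b (0.835) and Ssh2 (0.829). Cxcl5 lay nearest to Ccl28 (0.950), Tpd52l1 (0.948) and Sox10 (0.947). For Cxcl12 the nearest were Atp6v0a4 (0.832), Ptgdr (0.832) and Atp13a5 (0.821), but its own stromal and endothelial classes had under 50 cells and did not enter. Among the members themselves r was 0.872 for Cxcl2 with Cxcl3, 0.872 for Cxcl2 with Cxcr2 and 0.734 for Cxcl3 with Cxcr2. Cxcl1 gave 0.685 with Cxcl2, 0.685 with Cxcl3 and 0.489 with Cxcr2. The ligands were thus not all closer to each other than to the receptor.

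Other genes of the same pathways were counted from lists chosen with earlier results known. Among all genes tested over all cells, 8.47% were past 2-fold higher and 5.28% lower under vehicle, and 7.7% and 1.24% under ribavirin. In neutrophil-like cells these shares were 9.7% and 14.9% under vehicle, and 15.8% and 3.64% under ribavirin. Single genes in lists this short are not read as a difference from these shares. Under vehicle and over all cells, 5 of 6 NF-kB response genes were past 2-fold higher with OVA, with Nfkbiz from 262 to 1555 CPM and Tnfaip3 from 292 to 1384. In neutrophil-like cells 5 of 6 were higher as well, and Nfkb1 went from 102 to 1095 CPM (10.7-fold, 9.57 to 12.1). Under ribavirin 0 of 6 passed in either direction over all cells and 1 of 6 was higher in neutrophil-like cells (Nfkb1, 2.01-fold, 1.86 to 2.17).

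Of 8 cytokines known to induce these ligands, 5 were higher (Il1a, Il1b, Tnf, Csf3 and Il6) and 2 lower (Il17a and Il17f) with OVA under vehicle over all cells. Csf3, which drives neutrophil production, went from 0.910 to 159 CPM, and Il17a from 213 to 61.3. Under ribavirin 0 were higher and 3 lower (Il1a, Il1b and Il17a). In neutrophil-like cells 6 could be counted, with 4 higher and 1 lower under vehicle, where Il1a went from 179 to 1602 CPM, and with 1 higher (Tnf, 173 to 533 CPM) and 1 lower (Csf3, 29.5 to 8.98 CPM) under ribavirin.

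Among the 5 other attractant receptors of neutrophils, 4 were higher under vehicle over all cells (Fpr1, Fpr2, C5ar1 and Ptafr) and 1 was lower under ribavirin (Fpr1, 29.89 to 12.97 CPM). In neutrophil-like cells under vehicle 2 were higher (Fpr2 and Ptafr) and 1 lower (Ltb4r1, a leukotriene B4 receptor, 110 to 34.8 CPM), and under ribavirin 0 passed. Of 4 further chemokine receptors and scavengers, Cxcr1 and Ccr1 were higher under vehicle over all cells, with Ccr1 from 221 to 761 CPM, and 0 passed under ribavirin. In neutrophil-like cells 0 of the 2 that could be counted passed in either arm.

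Of the related chemokines Ppbp and Pf4, Ppbp was higher in both arms over all cells, from 0.196 to 33.7 CPM and from 0.480 to 6.64 CPM, and neither passed in neutrophil-like cells. Of 5 adhesion and retention genes, 1 was higher under vehicle over all cells (Icam1) and 0 under ribavirin. In neutrophil-like cells under vehicle Icam1 went from 63.2 to 251 CPM while Selplg, from 850 to 398 CPM, and Itga4, from 163 to 45.3 CPM, were lower. Under ribavirin 0 of the 5 passed in these cells.

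Of 10 dissociation stress genes, 4 were higher with OVA under vehicle and 1 under ribavirin over all cells, against 8.47% and 7.7% of all genes. In neutrophil-like cells 2 were higher and 2 lower under vehicle, and 2 were higher under ribavirin, where Hspa1b went from 30.4 to 510 CPM. The 2 of 10 lower under vehicle and the 2 of 10 higher under ribavirin are near the shares of all genes, 14.9% and 15.8%. In Siglecf-high neutrophil-like cells, where both receptors were higher with OVA, the 10 stress genes summed to 16920 CPM in Vehicle and 32520 in Vehicle-OVA. In the same cells they summed to 18820 CPM in Ribavirin and 32720 in Ribavirin-OVA. The part of this stress in the values of the 7 genes was not tested. In macrophage-like cells the same 7 lists, in the order NF-kB genes, cytokines, attractant receptors, further receptors, related chemokines, adhesion genes and stress genes, held 1, 2, 2, 2, 1, 0 and 1 genes higher and 0, 1, 0, 0, 0, 0 and 0 lower under vehicle. Under ribavirin they held 0, 0, 0, 1, 0, 0 and 0 higher and 0, 2, 2, 0, 0, 0 and 0 lower. Among all genes tested in macrophage-like cells, 8.95% were higher and 3.28% lower under vehicle, and 7.01% and 2.62% under ribavirin.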

How the data were processed

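CD45+ cells of nasal mucosa were profiled by 3' single-cell RNA-seq in 4 libraries, 1 per group. The authors deposited UMI counts per gene and cell barcode, made with Cell Ranger 5.0.0 on mm10 per the submitters' processing notes and not otherwise normalized. The labels name magnetic enrichment and the design text flow sorting for CD45, and ribavirin is not described in the paper's methods.

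From these counts, cells with at least 500 UMIs, 200 genes and at most 10% mitochondrial UMIs were kept. Doublets were scored by simulation in each library (own Python code after the published method) and the expected rate was removed (0.4% per 1000 barcodes, 4.13% to 11.3%), because an automatic threshold marked 5 cells of Ribavirin-OVA. Cells were clustered with Leiden (leidenalg 0.10.2, resolution 1, 30 principal components, 2000 variable genes without the 7 members, 15 neighbours) and clusters were named "-like" from 20 marker lists where at least 3 markers were detected. For each class and library the UMIs were added up and given as CPM with exact Poisson intervals, and ratios with exact conditional binomial intervals (scipy 1.17.1, Python 3.11.15). Shares of cells were taken after thinning to 1000 UMIs. Sums and ratios were tested on simulated data. No test between groups was made.

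Named are the 7 members, examples from 7 lists (41 of 42 genes found) and for each member the 3 genes of highest r. The members and lists were chosen with earlier results of these data known. Alternatives covered the cell filters, doublets, clustering, naming, pseudocount, centring, cell-wise means and, chosen after the data were seen, the automatic doublet threshold and leaving out the neutrophil classes.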

Additional observations from a re-analysis of the deposited data

Results flagged for a closer look

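Several genes lay on opposite sides of a ratio of 1 with OVA in the vehicle and in the ribavirin arm, with both counting intervals clear of 1. Each arm holds 1 library with and 1 without OVA, so the difference between arms was not tested. Values are log2 ratios of CPM, vehicle first.

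Over all cells Cxcl1 gave 2.59 and -0.723, Cxcl2 gave 2.72 and -1.43, Cxcl3 gave 5.51 and -1.91, and Cxcl5 gave 1.87 and -1.70. The receptor Cxcr2 gave 1.08 and -0.29, where the second value turned to 0.06 with a mitochondrial limit of 5%. Cxcl12 had the opposite order, with -1.77 and 0.926, where the second value fell to 0.124 with the mean of single-cell CPM.

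In neutrophil-like cells Cxcl1 gave 2.08 and -3.92, Cxcl2 gave 0.775 and -1.01, and Cxcl3 gave 2.55 and -1.30. Cxcr4 gave -0.429 and 0.184, where the second value turned to -0.15 when centred on the median of all genes. In macrophage-like cells Cxcl1 gave 1.37 and -0.474 and Cxcl2 gave 1.08 and -0.973.

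The number of neutrophil-like cells (1345 and 8626 under vehicle, 3218 and 853 under ribavirin, without and with OVA) moved in the same directions as the ligands over all cells. Without the 3 neutrophil classes the ratios of Cxcl1, Cxcl2, Cxcl3 and Cxcl5 kept their side of 1 in both arms, with Cxcl3 under ribavirin moving from 0.266 to 0.887. The remaining cells include the 5 lymphoid and plasmacytoid classes, which together had Cxcl3 at 4.91 CPM in Vehicle and 82.2 in Vehicle-OVA and Cxcl2 at 59.1 and 768. The part of neutrophil numbers in these values was not tested.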

How the results depend on the processing

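No paired analysis was possible because each group has 1 library. The 12 counts of members past 2-fold were recomputed in 15 settings. Of 148 such counts 118 stayed within 1.5 times and 30 did not, and the cause was not tested. Over all cells 1 gene was lower under vehicle (0 before) with a mitochondrial limit of 5% or a pseudocount of 0.1, 3 were higher under vehicle (5 before) with the mean of single-cell CPM, and 1 was lower under ribavirin (3 before) without the 3 neutrophil classes. In neutrophil-like cells the 1 gene lower under vehicle, Cxcr2, was replaced by 0 with a mitochondrial limit of 20%, doublets kept, resolution 2, classes from marker UMIs of single cells, centring, the 3 classes as 1 or the automatic doublet threshold, and by 2 genes with each library clustered on its own. In macrophage-like cells 3 were higher under vehicle (5 before) after centring, and 1 was lower (0 before) with marker UMIs of single cells. Under ribavirin the macrophage-like count of genes higher went from 0 to 2 with at least 1000 UMIs, either mitochondrial limit, doublets kept, resolution 2, own clustering, or members among the variable genes, and to 1 with marker UMIs, mean CPM or the automatic threshold. The count lower there went from 0 to 1 with doublets kept, own clustering, marker UMIs, centring, a pseudocount of 0.1 or the automatic threshold.

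Of 76 log2 ratios, 62 kept their sign in all settings, and all 41 past 2-fold were among them. Cxcr2 in neutrophil-like cells ran from -2 to -0.44 under vehicle and changed sign in 7 of 11 settings under ribavirin. Cxcl5 over all cells ran from 0.235 to 3.90 under vehicle and Cxcl1 in neutrophil-like cells from -4.26 to -2.07 under ribavirin. Cxcl3 ran from 4.83 to 5.65 over all cells and from 2.36 to 4.02 in neutrophil-like cells under vehicle. With 1 library per group, differences between mice, capture or processing of the libraries cannot be told apart from those between groups, and intervals cover counting alone. Classes of under 50 cells, Cxcl12 in leukocytes and Cxcl1 in Ribavirin-OVA neutrophil-like cells rest on few UMIs.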
